A study of Homo sapiens with 54 samples.

Results

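The expression of 10 genes of the ATF4 and CHOP branch of the cellular stress response was described in MDA-MB-231, a breast cancer cell line of human origin: ATF4, DDIT3 (which encodes CHOP), ATF3, CEBPB, TRIB3, PPP1R15A, CHAC1, SESN2, DDIT4 and VLDLR. They are 10 of the 27978 genes in the count table. The genes were picked by symbol after their levels in these libraries, and their log2 ratios to untreated cells, were already known, so those ratios are given here as a description, without p-values. Where a gene is said to be called against untreated cells, the threshold was passed by a value known at that choice. Such a call, kept or lost, is part of the description and no separate evidence.

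ATF4 is a transcription factor whose translation rises when stress kinases phosphorylate the initiation factor eIF2 and general protein synthesis slows. PERK responds to unfolded protein in the endoplasmic reticulum, GCN2 to a lack of amino acids, PKR to double-stranded RNA and HRI to a lack of heme. ATF4 switches on genes of amino acid supply and the factors CHOP and ATF3, and together these control genes of redox balance, of growth arrest and of recovery of translation.

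CKI (Compound Kushen Injection) is an extract of medicinal plants with many components. RNA from cells left untreated or given CKI or mixtures of its components was read in 54 libraries, 3 for each of 18 groups, and the dose in the labels was 2 mg/ml in every treated group. Cells were sampled after 24 h or 48 h, and the labels name 2 batches. The submitters call the replicates biological, but the labels do not say that they came from separate cultures, so p-values measure the spread between these libraries only.

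The groups come in 3 blocks of 6 groups, each with its own untreated and CKI cells. In batch 1, at both 24 h and 48 h, the mixtures were N-OmtOspc (CKI from which the compounds Omt and Ospc were left out), N-MacOmtOspc (CKI without Mac, Omt and Ospc), OmtOspc (those 2 compounds alone) and MacOmtOspc (the 3 compounds alone). In batch 2, at 48 h, the mixtures were N-Mac, N-Nme, N-Omt and N-Tri, each of them CKI with 1 compound left out. The short compound names are those of the submitters, who give no longer form beside them. Every treated group of a block was set against the same 3 untreated libraries.

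The starts of the genes are shown first, because an ATF4 partner site is a known feature of several of them. RefSeq (GRCh38.p14) gave 16 promoter windows for the 10 genes, each of 300 bases, with 250 before the start of the transcript and 50 after it. The letters TGATGNAA, the core of the site bound by ATF4 with a C/EBP partner, were searched on both strands. They occurred in 2 of the 16 windows, 1 of ATF3 and that of CHAC1, and so in 2 of the 10 genes, against 3.62% of the 35116 windows of all genes. The windows of ATF4, of DDIT3, of TRIB3 and of CEBPB overlap within each gene, so the 16 windows are not separate promoters. The other ATF3 window, which starts at chr1:212614768, held no match. In the matching ATF3 window the match began at position -191 and in the CHAC1 window at position -209, counted from the start of the transcript, and the CHAC1 match lies on the opposite strand to the gene. The letters TGACGTCA, the palindromic site of the CREB and ATF family, were added after the windows had been seen. They occurred in 1 window, that of PPP1R15A at position -58, against 1.85% of all windows. The letters of the pair of motifs do not overlap each other in these windows. Below are the 250 bases before the start of these 3 transcripts, at chr1:212565157-212565406 for ATF3, chr15:40953221-40953470 for CHAC1 and chr19:48872171-48872420 for PPP1R15A, all on the plus strand, with the matched letters in capitals.
ATF3: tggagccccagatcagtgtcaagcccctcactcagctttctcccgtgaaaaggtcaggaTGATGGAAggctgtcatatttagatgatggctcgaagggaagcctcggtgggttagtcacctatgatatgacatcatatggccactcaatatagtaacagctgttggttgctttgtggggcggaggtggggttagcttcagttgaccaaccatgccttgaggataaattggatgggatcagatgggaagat
CHAC1: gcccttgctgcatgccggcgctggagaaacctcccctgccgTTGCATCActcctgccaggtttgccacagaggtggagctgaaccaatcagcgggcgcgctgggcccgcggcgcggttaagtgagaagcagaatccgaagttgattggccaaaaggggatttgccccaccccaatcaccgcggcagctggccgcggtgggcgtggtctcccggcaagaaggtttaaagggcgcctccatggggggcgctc
PPP1R15A: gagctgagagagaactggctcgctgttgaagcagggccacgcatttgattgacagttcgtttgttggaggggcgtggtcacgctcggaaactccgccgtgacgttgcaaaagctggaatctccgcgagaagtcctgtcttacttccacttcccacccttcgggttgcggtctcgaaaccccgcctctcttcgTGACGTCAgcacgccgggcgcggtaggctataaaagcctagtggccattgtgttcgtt
A match is a description of the letters and not a bound site. The windows of the other 7 genes hold neither motif in these letters, and sites beyond the windows or of another spelling were not searched.

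Total counts per library lay between 17673537 and 26138924, with a median of 22568666.5. Levels are given in CPM, the count of a gene relative to its library total after TMM scaling over the 54 libraries, which allows a gene to be compared between libraries but not 1 gene with another. Where libraries of different groups are said not to overlap, or all to lie above or below each other, this describes the values. The share of all genes for which the same holds was not computed. Markers of the line were present in every library (VIM between 489.6 and 1562 CPM, with CD44, EGFR and AXL each above 60 CPM), while the estrogen receptor gene ESR1 had at most 8 counts and the progesterone receptor gene PGR at most 2. Of the other luminal and epithelial genes on that list FOXA1 and CDH1 stayed at or below 2.80 and 7.20 CPM, but KRT18 (77.2 to 701 CPM), ERBB2 (31.6 to 114 CPM), EPCAM (6.25 to 27.3 CPM) and GATA3 (5.22 to 45.4 CPM) were present in every library. Of 8 fibroblast genes DCN, POSTN and PDGFRA stayed at or below 1.01 CPM, and COL1A1 was the highest at 8.88 to 64.2 CPM. Of 6 HEK-293 markers LIN28B, NEFL and NEFM had at most 2 counts, PAX2 at most 10 and NEUROG2 at most 13, while WT1 reached 10.8 CPM. The part of other cells in the results was not tested. A total of 3 libraries of batch 1 at 24 h stood apart from their groups: CKI replicate 1, N-MacOmtOspc replicate 2 and OmtOspc replicate 2. Over 710 genes that differed at least 2-fold between the untreated cells of the batches, the deviation of these libraries from their group followed the batch difference with slopes of at least 0.591, against -0.407 to 0.098 in the other 33 libraries of batch 1, and values at 24 h are therefore also given without them where they matter.

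**Figure D1:**
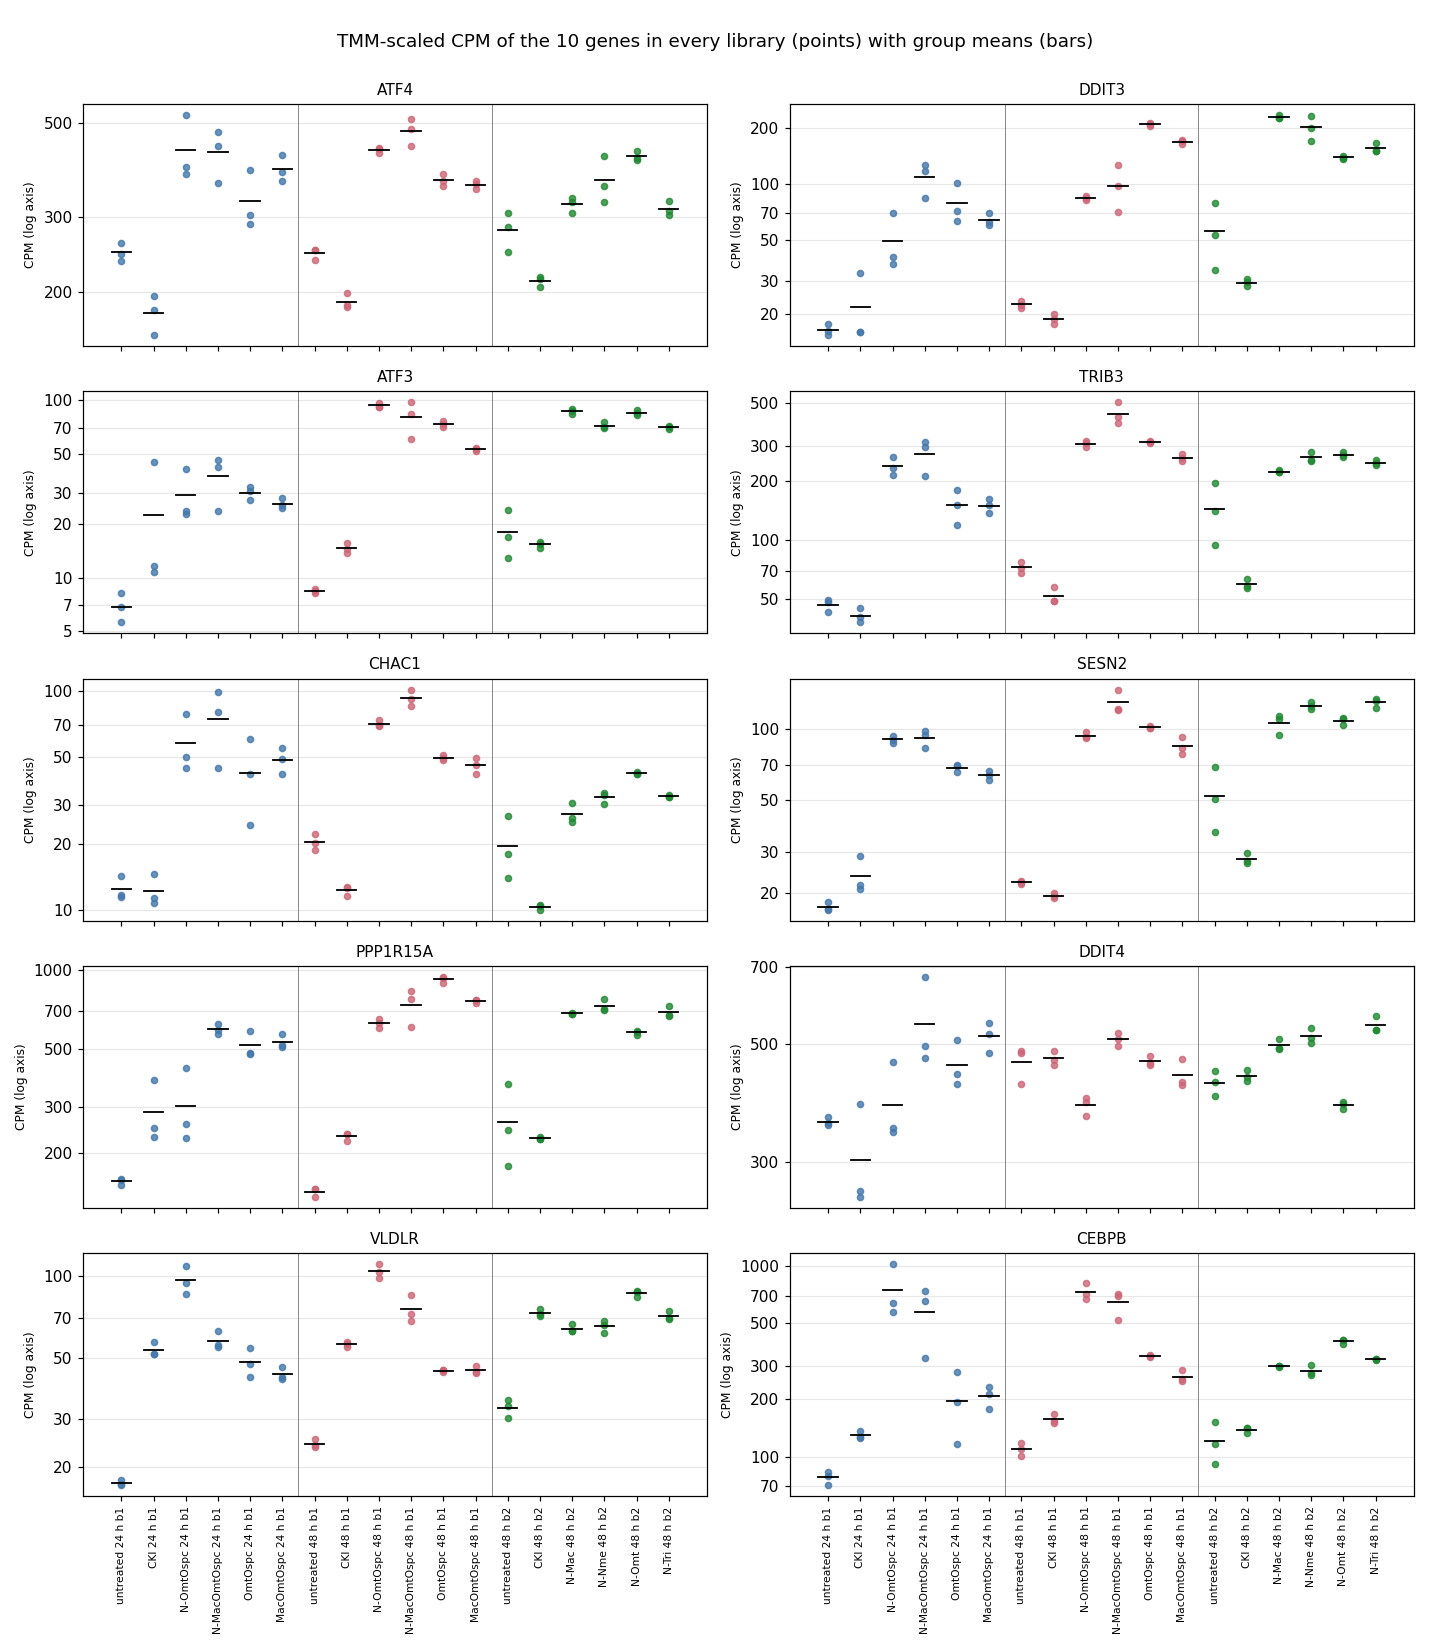
Level of each of the 10 genes in CPM (log axis) in every library, as points, with bars at the group mean, for the 18 groups in their 3 blocks (24 h batch 1, 48 h batch 1, 48 h batch 2; b stands for batch). DDIT3, ATF3, TRIB3, SESN2 and CHAC1 lay higher in the mixtures than in CKI at 48 h, DDIT4 varied least and VLDLR was higher in CKI than in untreated cells in all 3 blocks.

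After CKI the 10 genes did not move as 1 group. At 24 h 4 of them were called higher and 1 lower than in untreated cells (edgeR's quasi-likelihood test, Benjamini-Hochberg adjusted p under 0.05), where 15.3% of the 15191 genes tested were called higher and 14.8% lower. At 48 h in batch 1 the numbers were 4 higher and 3 lower (background 27% and 27% of 15513 genes), and in batch 2 they were 2 and 5 (background 32.3% and 34.2% of 15115 genes). The median log2 fold change of the 10 genes was 0.43 at 24 h, -0.08 at 48 h in batch 1 and -0.31 at 48 h in batch 2, beside 0.02, 0.01 and -0.01 over all genes tested. Because the genes were chosen on these ratios, nothing is read from the counts. In bulk RNA a smaller share of cells expressing a gene cannot be told apart from less of its RNA in each cell.

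ATF4, the factor at the head of the branch, was lower with CKI in all 3 blocks. Its CPM in untreated cells were 261, 246 and 236 at 24 h, and 158, 181 and 195 with CKI. At 48 h untreated cells had 238, 251 and 251 CPM in batch 1 and CKI-treated cells 198, 186 and 184. The corresponding values in batch 2 were 283, 248 and 307 without and 205, 214 and 216 with CKI, so that no CKI library reached the lowest untreated one of its block. The log2 fold changes were -0.48 ± 0.14 (± SE), -0.38 ± 0.06 and -0.40 ± 0.07. At 24 h the call was lost without CKI replicate 1, where the log2 fold change was -0.40, and without untreated replicate 1 (-0.44) or 2 (-0.48), but it was kept without all 3 libraries that stood apart (-0.40).

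DDIT3 encodes CHOP, a C/EBP family factor that is induced by ATF4 and that favors cell death under lasting stress. With CKI at 24 h it stood at 33.4, 16.1 and 16.1 CPM, against 17.6, 16.2 and 15.5 without. The high value is that of replicate 1, 1 of the 3 libraries that stood apart, and the other replicates lay within the untreated range. In batch 2 at 48 h DDIT3 was at 28.3, 29.6 and 30.8 CPM with CKI and 53.3, 34.6 and 79.0 without, and its log2 fold change was -0.91 ± 0.15. Untreated cells of batch 2 varied widely, from 34.6 to 79.0 CPM, whereas the CKI libraries of that batch lay close together. In batch 1 at 48 h the log2 fold change was -0.26 ± 0.13, which was not called.

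ATF3, a stress-induced repressor and activator of the same bZIP class, had 44.8, 11.7 and 10.8 CPM with CKI at 24 h and 5.60, 8.19 and 6.83 without. Replicate 1 held 44.8 CPM, far above the other replicates. The log2 fold change was 1.71 with that library and 0.70 without it, where it was no longer called. Without all 3 libraries that stood apart it was 0.70 as well, and called. At 48 h ATF3 was called higher in batch 1 (0.80 ± 0.13) but not in batch 2, where its log2 fold change was -0.22 ± 0.11 (95% interval -0.46 to 0.01). Without untreated replicate 2 of batch 2 it was -0.41 and was called lower.

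CEBPB, which encodes a C/EBP factor and partner of ATF4, was at 127, 126 and 137 CPM with CKI at 24 h against 82.9, 79.6 and 71.4 without, and every CKI library was above every untreated one. The log2 fold change of 0.73 ± 0.30 missed the threshold over all libraries and was called without the 3 libraries that stood apart (0.74). At 48 h CEBPB was called higher in batch 1 (0.52 ± 0.10) and in batch 2 (0.20 ± 0.09). In batch 2 the value was 0.04 without untreated replicate 2, and the call was lost without that library, untreated replicate 1, or CKI replicate 1 or 3.

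The pair of feedback genes differed in their response to CKI. TRIB3, a pseudokinase that restrains ATF4 and CHOP, had 57.3, 63.1 and 58.3 CPM with CKI in batch 2 and 141, 94.5 and 196 without. Its log2 fold change was -1.27 ± 0.12 there, -0.49 ± 0.08 at 48 h in batch 1 and -0.19 ± 0.16 at 24 h, the last not called. PPP1R15A, which encodes GADD34, the phosphatase subunit that removes the phosphate from eIF2, had 238, 238 and 223 CPM with CKI at 48 h in batch 1 and 136, 146 and 146 without. It was called higher at 24 h (0.88 ± 0.20) and at 48 h in batch 1 (0.71 ± 0.08) but not in batch 2 (-0.21 ± 0.12), where the CKI libraries fell within the untreated range of 179.5 to 369 CPM. Without untreated replicate 2 of batch 2 its log2 fold change was -0.42 and was called lower.

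Of the output genes, CHAC1 and SESN2 were lower with CKI at 48 h in batch 2 and VLDLR was higher in every block. CHAC1, which encodes an enzyme that breaks down glutathione, had 10.5, 10.4 and 9.98 CPM with CKI and 17.9, 14.0 and 26.7 without in batch 2, and its log2 fold changes were -0.03 ± 0.31, -0.72 ± 0.09 and -0.92 ± 0.13 in the 3 blocks in order. SESN2 encodes sestrin 2, a leucine sensor that restrains mTORC1. At 24 h it was at 28.7, 21.6 and 20.8 CPM with CKI and 18.4, 17.1 and 17.0 without, and at 48 h in batch 1 it was at 20.0, 19.4 and 19.1 CPM with CKI and 22.6, 22.2 and 21.9 without. All CKI libraries were above all untreated ones at 24 h and below them at 48 h in batch 1. The log2 fold changes were 0.44 ± 0.12 at 24 h, -0.19 ± 0.08 at 48 h in batch 1, which was not called, and -0.89 ± 0.12 in batch 2. The call at 24 h was lost without CKI replicate 1 (0.27) and kept without all 3 libraries that stood apart (0.27).

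VLDLR, a lipoprotein receptor that ATF4 raises under endoplasmic reticulum stress, had 57.2, 52.0 and 52.0 CPM with CKI and 17.3, 17.5 and 18.0 without at 24 h. At 48 h in batch 1 the values were 57.3, 54.8 and 56.3 CPM with and 24.1, 23.7 and 25.4 without CKI. In batch 2 they were 72.5, 71.0 and 75.3 CPM with and 33.6, 30.2 and 35.3 without, so that the groups were apart in every block. Its folds over untreated cells were 3.05, 2.30 and 2.21. VLDLR and, in the opposite direction, ATF4 were the 2 genes called in all 3 blocks, which describes genes chosen on these ratios and is no separate evidence. DDIT4 encodes REDD1, an inhibitor of mTORC1 that also answers to hypoxia and glucocorticoids. It was not called in any block with CKI, and the 95% intervals of its log2 fold change were -0.60 to 0.12 at 24 h, -0.12 to 0.17 at 48 h in batch 1 and -0.05 to 0.15 in batch 2. Without CKI replicate 1 at 24 h DDIT4 was called lower (-0.46).

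With the component mixtures most of the 10 genes were called higher than in untreated cells. Against untreated cells at 24 h, 9 genes were called higher with N-OmtOspc (background 31.1%), 10 with N-MacOmtOspc (23.2%), 8 with OmtOspc (9.03%) and 9 with MacOmtOspc (5.61%), and none was called lower (background 30.9%, 21.8%, 7.72% and 4.84% in that order). At 48 h in batch 1 the number was 9 with each of the 4 mixtures, with backgrounds of 38.3%, 35.8%, 29.1% and 25.7% in the same order, and DDIT4 alone was called lower, with N-OmtOspc (background 38.3%, and 35.3%, 28.7% and 25.5% for the others). In batch 2 it was 10 with N-Mac (background 36.9%) and N-Nme (35.9%) and 9 with N-Omt (38.4%) and N-Tri (34.8%), and DDIT4 alone was called lower, with N-Omt (background 39.9%, and 35.4%, 35.4% and 37.4% for N-Mac, N-Nme and N-Tri). These counts describe the choice of the genes and are no separate evidence.

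**Figure D2:**
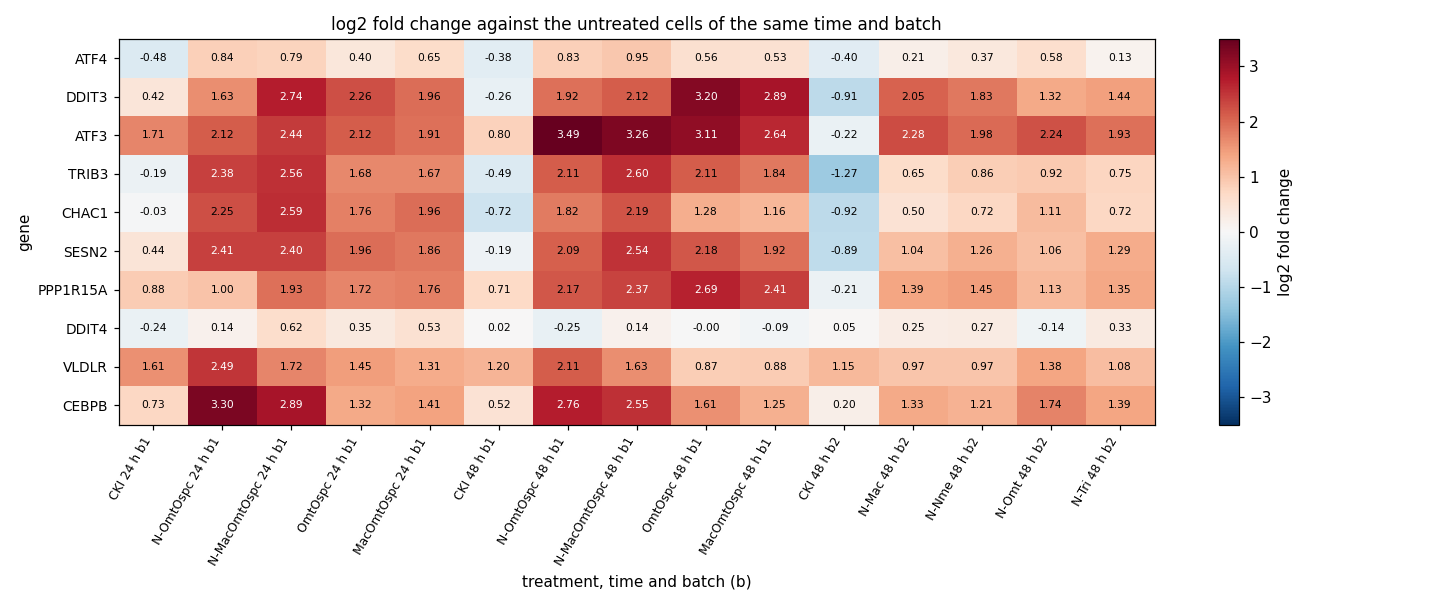
Log2 fold change of each of the 10 genes (rows) in each of the 15 treated groups (columns) against the 3 untreated libraries of the same time and batch, with the value printed in each cell and red for higher. The columns of CKI hold values from -1.27 to 1.71, and the DDIT4 row stays between -0.25 and 0.62 in all columns.

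Medians over the 10 genes gave the size of the difference. The median log2 fold change against untreated cells was 2.19 with N-OmtOspc, 2.42 with N-MacOmtOspc, 1.70 with OmtOspc and 1.72 with MacOmtOspc at 24 h. In the same order it was 2.10, 2.28, 1.86 and 1.55 at 48 h. With the single removals it was 1.01 for N-Mac, 1.09 for N-Nme, 1.12 for N-Omt and 1.18 for N-Tri. The lower medians in batch 2 stand beside higher levels of several of these genes in the untreated cells of that batch, described further on.

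Set directly against each mixture of its block, CKI had lower levels of the 10 genes by a median log2 difference of -0.86 (OmtOspc), -1.0 (MacOmtOspc), -1.26 (N-OmtOspc) and -1.61 (N-MacOmtOspc) at 24 h. At 48 h in batch 1 these medians were -1.99, -1.77, -2.21 and -2.21. Against the single removals they were -1.51 for N-Mac, -1.65 for N-Nme, -1.75 for N-Omt and -1.60 for N-Tri, while the median over all genes tested stayed between -0.02 and 0.02 in all 12 of these differences. The genes were chosen for this pattern, so it is given without a test.

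Among the transcription factors, ATF4 moved least. Its libraries lay at 349.5 to 509 CPM in the 4 mixtures at 48 h in batch 1, above the 238 to 251 CPM of untreated cells and the 184 to 198 CPM of CKI. Log2 fold changes against untreated cells ran from 0.56 with OmtOspc and 0.53 with MacOmtOspc to 0.95 with N-MacOmtOspc. In batch 2 they ran from 0.13 with N-Tri, not called, to 0.58 with N-Omt.

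DDIT3 was highest with OmtOspc in batch 1 at 48 h, at 212, 203 and 210.4 CPM, and with N-Mac in batch 2, at 235, 225 and 227 CPM. At 48 h MacOmtOspc gave 169, 163 and 172 CPM and N-OmtOspc 84.4, 81.8 and 86.6, so the mixtures of 2 or 3 compounds alone lay above the mixtures that lacked them. The order was not the same at 24 h, when N-MacOmtOspc was at 127, 84.5 and 117 CPM and OmtOspc at 102, 63.1 and 71.7. The log2 fold change against untreated cells at 48 h was 3.20 ± 0.13 with OmtOspc and 1.92 ± 0.13 with N-OmtOspc.

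ATF3 had higher levels at 48 h than at 24 h in every library of the 4 mixtures of batch 1, the ranges being 51.5 to 97.3 and 22.8 to 46.1 CPM. With N-OmtOspc it was at 23.7, 22.8 and 40.8 CPM at 24 h and 91.9, 91.8 and 95.9 at 48 h, whereas the CKI libraries at 48 h were at 13.8, 14.5 and 15.6 CPM. N-OmtOspc replicate 3 at 24 h was above the other replicates of its group in ATF3 and in the other 9 genes. The difference between times was not tested across treatments.

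CEBPB had its highest levels in the mixtures without Omt and Ospc, at 816, 710.2 and 671 CPM with N-OmtOspc and 694, 524 and 715 with N-MacOmtOspc at 48 h, against 336, 343 and 332 with OmtOspc. In batch 2 N-Omt was likewise highest, at 408, 391 and 407 CPM. The N-Mac libraries of that batch lay at 301, 297 and 299 CPM.

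TRIB3 and PPP1R15A, the feedback genes, were both higher with every mixture than with CKI at 48 h. TRIB3 was at 252 to 505 CPM in the 4 mixtures of batch 1 at 48 h and at 49.0 to 57.4 CPM with CKI. PPP1R15A was highest with OmtOspc at 48 h, at 944, 898 and 939 CPM, with 238, 238 and 223 for CKI. At 24 h N-OmtOspc was the exception, with 259.6, 229.5 and 424 CPM and only replicate 3 above the CKI libraries of 231 to 383 CPM.

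The output genes differed from each other. CHAC1 was at 41.8 to 51.0 CPM with the mixtures of 2 or 3 compounds at 48 h and 69.0 to 102 with N-OmtOspc and N-MacOmtOspc, and these ranges do not overlap. SESN2 lay at 78.3 to 147 CPM over the 4 mixtures and 93.7 to 134 over the single removals. VLDLR was higher with CKI than with OmtOspc and MacOmtOspc at 48 h, the log2 differences being 0.33 ± 0.07 and 0.32 ± 0.07, and lower than with N-OmtOspc (-0.91 ± 0.07) and N-MacOmtOspc (-0.42 ± 0.07). DDIT4 had library values from 366 to 525 CPM over the mixtures and 421 to 487 in untreated cells at 48 h in batch 1. At 24 h its means were 546 CPM with N-MacOmtOspc, 518 with MacOmtOspc, 457 with OmtOspc and 383 with N-OmtOspc, against 357 in untreated cells. In batch 2 they were 543 with N-Tri, 518 with N-Nme, 499 with N-Mac and 384 with N-Omt, against 423.

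Pairs of mixtures that differ by Mac alone in their labels give contrasts that were not formed when the genes were chosen. The levels in the same libraries were known at that choice, so the p-values of these contrasts measure the spread between libraries and are not independent of it. When Mac was added to Omt and Ospc, none of the 10 genes was called at 24 h. No gene of the 15191 tested was called there either (background 0%), with 566 genes at an unadjusted p under 0.05 in edgeR, none called by DESeq2 and 3 called by edgeR without the 3 libraries that stood apart. The 95% intervals of the log2 fold change at 24 h were -0.05 to 0.56 for ATF4, -0.35 to 0.14 for SESN2 and -1.06 to 0.65 for ATF3. At 48 h ATF3 was called lower with Mac, at 51.5, 53.0 and 54.0 CPM against 70.5, 72.8 and 75.9 without, a log2 fold change of -0.47 ± 0.10 (edgeR, adjusted p = 0.0161, background 0.522% lower and 1.46% higher). All 3 libraries with Mac were below all 3 without. The call was lost when any of the 6 libraries other than OmtOspc replicate 1 was left out, with log2 fold changes from -0.44 to -0.48.

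In CKI already lacking Omt and Ospc, the presence of Mac went with lower DDIT3, PPP1R15A and DDIT4 and higher VLDLR at 24 h. DDIT3 was at 40.5, 37.4 and 70.2 CPM with Mac and 127, 84.5 and 117 without, a log2 fold change of -1.11 ± 0.28 (edgeR, adjusted p = 0.00356). PPP1R15A was at 259.6, 229.5 and 424 CPM with Mac and 623, 571 and 591 without (-0.93 ± 0.20, edgeR adjusted p = 0.00119). In both genes all 3 libraries with Mac lay below all 3 without. DDIT4 was lower by the smaller log2 fold change of -0.47 ± 0.17 (edgeR, adjusted p = 0.0287), which was not called without N-OmtOspc replicate 1 or 2 or N-MacOmtOspc replicate 2 (-0.30). The DDIT4 call was also lost with only the groups compared in the fit (-0.51). VLDLR was at 94.2, 85.7 and 109 CPM with Mac and 55.7, 54.9 and 62.6 without (0.77 ± 0.11, edgeR adjusted p = 3.58e-05). Of all genes tested 23.8% were called higher and 23.8% lower in this comparison, so 1 of 10 higher and 3 of 10 lower is near the background. Without the 3 libraries that stood apart 7 of the 10 genes were called, with ATF3 (-0.56), TRIB3 (-0.34) and CHAC1 (-0.60) added on the lower side. Over all genes the calls went from 7238 to 7994 there.

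At 48 h the same pair of mixtures gave 5 genes lower and 1 higher with Mac, against a background of 25.9% and 25.1%. TRIB3 was at 318, 312 and 298 CPM with Mac and 395, 505 and 423 without (-0.49 ± 0.08, edgeR adjusted p = 3.36e-05). SESN2 was at 96.8, 91.0 and 92.4 CPM with Mac and 121, 147 and 121 without (-0.45 ± 0.07, edgeR adjusted p = 2.52e-05), and CHAC1 was lower by a log2 fold change of -0.37 ± 0.07 (edgeR, adjusted p = 2.85e-04). The groups did not overlap in any of the 3, and the share of all genes without overlap was not computed. DDIT4 was again lower (-0.39 ± 0.07, edgeR adjusted p = 6.13e-05) and VLDLR again higher (0.48 ± 0.07, edgeR adjusted p = 8.95e-06). DDIT3, the gene with the largest difference at 24 h, was not called at 48 h, with a 95% interval of -0.44 to 0.05. It was called lower without N-MacOmtOspc replicate 2 (-0.39), which had the lowest DDIT3 of its group, and so was ATF4 (-0.18). The lower call of PPP1R15A (-0.21 ± 0.08, edgeR adjusted p = 0.0419) was lost without N-OmtOspc replicate 2 or 3 or N-MacOmtOspc replicate 1 or 3 (-0.12), while ATF3 (0.39) and CEBPB (0.28) were called higher without N-MacOmtOspc replicate 3, and CEBPB also without replicate 1 (0.26). Whether the effect of Mac differed between the pairs of mixtures or the times was not tested.

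**Figure D3:**
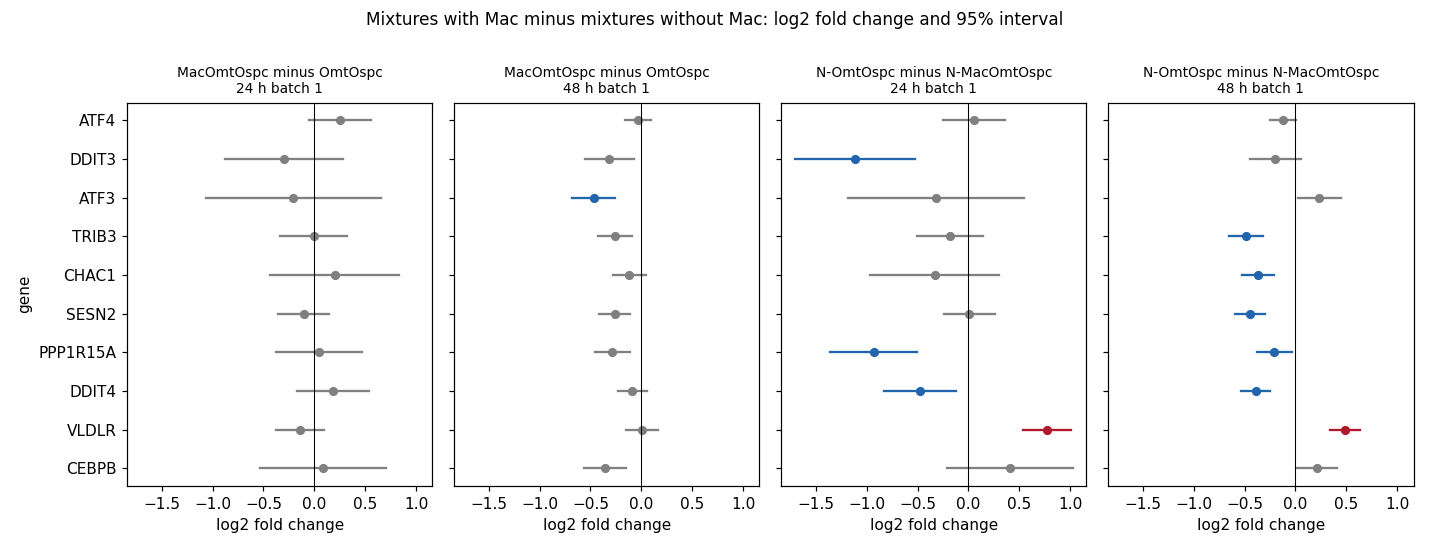
Log2 fold change of each of the 10 genes (points) with its 95% interval (lines) for a mixture with Mac minus the one without it, in 4 panels for the pair of mixtures and the time, on a shared axis. Colored genes passed the test (red higher, blue lower): none in the first panel, ATF3 in the second, and VLDLR on the higher and DDIT4 and PPP1R15A on the lower side in both of the last panels.

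The 4 single removals of batch 2 were each compared with the mean of the other 3, a contrast that does not involve untreated cells or CKI but has the same limit. The 4 contrasts share their libraries and sum to zero for each gene, so they are not independent. In N-Omt 5 of the 10 genes were higher and 3 lower than in the other removals (background 32.5% and 33.5%). CHAC1 was at 42.7, 41.6 and 41.8 CPM in N-Omt and at 25.3 to 34.2 CPM in the other removals, a log2 fold change of 0.46 ± 0.09 (edgeR, adjusted p = 2.76e-05). CEBPB (0.43 ± 0.07, edgeR adjusted p = 1.32e-06), VLDLR (0.38 ± 0.04, edgeR adjusted p = 4.33e-09) and ATF4 (0.34 ± 0.06, edgeR adjusted p = 2.59e-06) were also higher. DDIT3 was at 136, 138 and 141 CPM in N-Omt, below all libraries of the other removals, which held 149.7 to 235 CPM (-0.46 ± 0.11, edgeR adjusted p = 4.10e-04). DDIT4 was at 389, 377 and 386 CPM in N-Omt against 491 to 566 in the others (-0.42 ± 0.04, edgeR adjusted p = 1.28e-10). ATF4 and its own target DDIT3 therefore had opposite signs in this contrast. The calls of ATF3 (0.18 ± 0.07) and PPP1R15A (-0.26 ± 0.10) depended on single libraries, ATF3 on N-Omt replicates 2 (0.18 without it) and 3 (0.15), PPP1R15A on replicate 2 (-0.25).

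Leaving out Mac gave the highest DDIT3 of the removals on average. It was at 235, 225 and 227 CPM, and of the other removals only N-Nme replicate 1, at 231.8 CPM, reached that range. The log2 fold change against the other removals was 0.52 ± 0.10 (edgeR, adjusted p = 1.30e-04). ATF3 was higher as well (0.23 ± 0.07, edgeR adjusted p = 0.00877), and CHAC1 (-0.35 ± 0.09, edgeR adjusted p = 0.0031) and VLDLR (-0.17 ± 0.04, edgeR adjusted p = 0.00306) were lower, with a background of 21.9% of genes higher and 16.4% lower. The lower call of ATF4 (-0.15 ± 0.06, edgeR adjusted p = 0.0399) was lost when any N-Mac library, N-Nme replicate 1, N-Omt replicate 3 or N-Tri replicate 1 or 3 was left out (-0.17 to -0.11). DDIT4 was called higher without N-Nme replicate 1 or N-Tri replicate 3 (0.11 in both cases).

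In N-Nme 3 and in N-Tri 4 of the 10 genes were called. In N-Nme CEBPB was lower (-0.28 ± 0.07, edgeR adjusted p = 0.00165), as was VLDLR (-0.18 ± 0.04, edgeR adjusted p = 0.0017), and DDIT4 was higher (0.13 ± 0.04, edgeR adjusted p = 0.0087), with a background of 20.6% lower and 23.6% higher. The DDIT4 call was lost without N-Nme replicate 1 (0.09), where ATF3 was called lower (-0.21). Without N-Nme replicate 3, the lowest of its group in DDIT3, ATF4 (0.15) and DDIT3 (0.34) were called higher. In N-Tri 3 transcription factors were lower, ATF4 with a log2 fold change of -0.26 ± 0.06 (edgeR, adjusted p = 6.05e-04), DDIT3 with -0.29 ± 0.11 (edgeR, adjusted p = 0.0289) and ATF3 with -0.24 ± 0.07 (edgeR, adjusted p = 0.00869). DDIT4 was higher in N-Tri, at 532, 532 and 566 CPM (0.20 ± 0.04, edgeR adjusted p = 1.83e-04), with a background of 18.5% lower and 19.7% higher. The DDIT3 call was lost without N-Nme replicate 1 or N-Tri replicate 1 or 2 (-0.25 to -0.28).

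**Figure D4:**
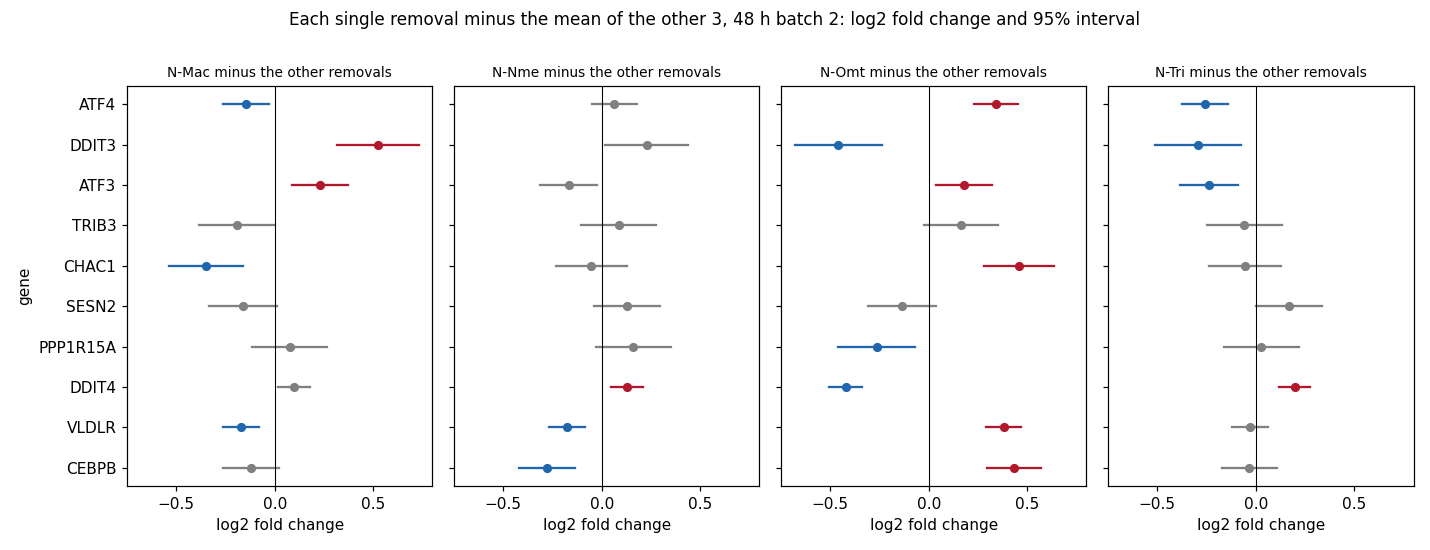
Log2 fold change of each of the 10 genes (points) with its 95% interval (lines) for each single removal minus the mean of the other 3 removals at 48 h in batch 2, in 4 panels on a shared axis. Red genes were called higher and blue ones lower, and the N-Omt panel holds 5 red and 3 blue genes.

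Untreated cells were themselves not alike in these genes. The untreated libraries are the denominators of the ratios on which the genes were chosen, so their differences are given without p-values. Between 24 h and 48 h in batch 1, 7 of the 10 genes were called higher and 0 lower (background 12.5% and 12.6% of 14187 genes). CHAC1 went from 14.2, 11.7 and 11.4 CPM to 18.7, 20.1 and 22.1 (0.70 ± 0.10), and TRIB3 from 49.3, 48.2 and 43.3 to 68.4, 72.5 and 77.5 (0.62 ± 0.07). In neither gene did the times overlap. ATF4 was not called, with a 95% interval of -0.15 to 0.11 for its log2 difference.

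At 48 h untreated cells of batch 2 had more DDIT3, SESN2, ATF3, TRIB3 and PPP1R15A than those of batch 1. The 10 genes gave 6 calls higher and 1 lower in batch 2, against 29% and 29.8% of 14242 genes. DDIT3 was at 22.5, 23.6 and 21.6 CPM in batch 1 and 53.3, 34.6 and 79.0 in batch 2 (1.26 ± 0.21), and SESN2 at 22.6, 22.2 and 21.9 and 50.3, 36.5 and 68.9 (1.18 ± 0.16). The spread also differed: within batch 2, replicate 3 was the highest and replicate 2 the lowest untreated library in all 10 genes. The call of DDIT4 (-0.17 ± 0.07) was lost without untreated replicate 2 or 3 of batch 1 or replicate 1 or 2 of batch 2 (-0.18 to -0.13). ATF4 (0.22) and CEBPB (0.25) were called higher without replicate 2 of batch 2, and CHAC1 was called lower without its replicate 3 (-0.37). In the CKI libraries, by comparison, TRIB3 was at 57.4, 49.1 and 49.0 CPM in batch 1 and 57.3, 63.1 and 58.3 in batch 2, and in untreated cells at 68.4, 72.5 and 77.5 and 141, 94.5 and 196.

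Other genes of the pathway were read from lists put together from general knowledge. Among 13 genes of the eIF2 kinases and of translation initiation, 2 were called higher and 1 lower with CKI at 24 h, 3 and 6 at 48 h in batch 1 and 3 and 5 in batch 2. The shares of all genes called higher and lower were 15.3% and 14.8%, 27% and 27%, and 32.3% and 34.2% in these blocks. EIF2AK3, which encodes the kinase PERK, was higher with CKI in all 3 blocks (1.37 ± 0.21, 0.73 ± 0.14 and 0.50 ± 0.08 on the log2 scale), while EIF2S3, a subunit of eIF2 itself, was lower (-0.55 ± 0.18, -0.33 ± 0.06 and -0.72 ± 0.04). Among 12 bZIP partners of the members the counts were 3 and 2, 5 and 4, and 4 and 5 in the same order, to be read against the same shares. ATF5, a relative of ATF4, was lower with CKI (-1.23 ± 0.13, -0.93 ± 0.09 and -1.19 ± 0.08) and with every mixture, for example -1.34 ± 0.08 with N-Omt, although ATF4 was higher in that group.

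In the amino acid arm of ATF4 most genes were lower with CKI at 48 h. Of 18 genes 11 were called lower and 1 higher in batch 1, and 14 and 1 in batch 2, with list medians of -0.31 and -0.53, whereas at 24 h 3 of 17 were higher and 3 lower. Of all genes 27% were lower and 27% higher in batch 1 at 48 h, 34.2% and 32.3% in batch 2, and 14.8% and 15.3% at 24 h. PHGDH, the first enzyme of serine synthesis, had log2 fold changes of -1.29 ± 0.10 and -1.14 ± 0.11 at 48 h. The gene called higher each time was SLC7A11, the cystine transporter (2.46 ± 0.23, 1.12 ± 0.11 and 0.92 ± 0.12). With the mixtures of batch 1 at 48 h, 14 of 18 were higher and 1 lower for OmtOspc (background 29.1% and 28.7%) and 14 and 0 for MacOmtOspc (25.7% and 25.5%). The counts were 11 and 4 for N-OmtOspc (38.3% and 38.3%), and 12 and 2 for N-MacOmtOspc (35.8% and 35.3%). The single removals were less one-sided, with 8 higher and 6 lower for N-Mac (list median 0.09), 9 and 6 for N-Nme (0.07), 11 and 6 for N-Omt (0.42), and 9 and 5 for N-Tri (0.12). In the same order 36.9%, 35.9%, 38.4% and 34.8% of all genes were higher and 35.4%, 35.4%, 39.9% and 37.4% lower.

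Other outputs of ATF4 and CHOP went both ways with CKI at 48 h and were mostly higher with the mixtures at that time. At 24 h 5 of 13 genes were higher and 0 lower with CKI (background 15.3% and 14.8%). At that time 6 were higher with OmtOspc (background 9.03% higher), 6 with MacOmtOspc (5.61%), 11 with N-OmtOspc (31.1%) and 10 with N-MacOmtOspc (23.2%). Of the same genes 5 were higher and 5 lower with CKI at 48 h in batch 1, and 5 and 6 in batch 2. The counts were 12 and 1 with OmtOspc and 11 and 2 with N-OmtOspc at 48 h, where 29.1% and 38.3% of all genes were higher and 28.7% and 38.3% lower. With CKI at 48 h 27% of all genes were higher and 27% lower in batch 1, and 32.3% and 34.2% in batch 2. The single removals had from 10 higher (N-Mac, background 36.9%) to 12 (N-Nme, 35.9%). STC2, a secreted glycoprotein gene, was higher with CKI in all blocks (2.06 ± 0.30, 1.75 ± 0.23 and 1.52 ± 0.21). NUPR1, a small stress-induced chromatin factor, had -1.36 ± 0.14 with CKI in batch 2 and 2.66 ± 0.11 with N-OmtOspc at 48 h.

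The IRE1 and ATF6 arms, the other branches of the unfolded protein response, did not keep step with the 10 genes. With OmtOspc and with MacOmtOspc at 48 h all 15 of the listed genes were called higher, with a median of 1.55 and 1.42 (background 29.1% and 25.7%). With N-OmtOspc at the same time 5 were higher and 10 lower (background 38.3% and 38.3%, list median -0.58), although the median of the 10 genes was 2.10 there. With CKI 8 were lower and 4 higher at 48 h in batch 1 (background 27% and 27%), and 11 and 1 in batch 2 (34.2% and 32.3%). HSP90B1, which encodes the chaperone GRP94, went from 1.35 ± 0.10 with OmtOspc to -1.10 ± 0.10 with N-OmtOspc at 48 h on the log2 scale, and CRELD2 from 0.56 ± 0.09 to -1.57 ± 0.10.

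The same arms were also read in the contrasts that leave untreated cells out, on the same libraries and with the list chosen knowing earlier results. With Mac in CKI lacking Omt and Ospc, 15 of 15 genes were lower at 48 h and 10 at 24 h, none being higher. The background shares were 25.9% and 23.8% lower, and 25.1% and 23.8% higher. HSP90B1 differed by -1.25 ± 0.10 on the log2 scale at 48 h. Against the other removals, 14 of the genes were lower in N-Omt and 1 higher, while in N-Nme 14 were higher and 0 lower. Of all genes 33.5% were lower and 32.5% higher in N-Omt, and 23.6% higher and 20.6% lower in N-Nme. HSP90B1 was lower in N-Omt (-1.25 ± 0.05) and higher in N-Nme (0.96 ± 0.04). In N-Mac 1 gene was higher (background 21.9%), and in N-Tri 9 were higher and 2 lower (19.7% and 18.5%). Of the genes of the ATF4 and CHOP branch called in N-Omt, DDIT3, PPP1R15A and DDIT4 had the sign of most of these genes, and ATF4, ATF3, CHAC1, CEBPB and VLDLR the opposite one.

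**Figure D5:**
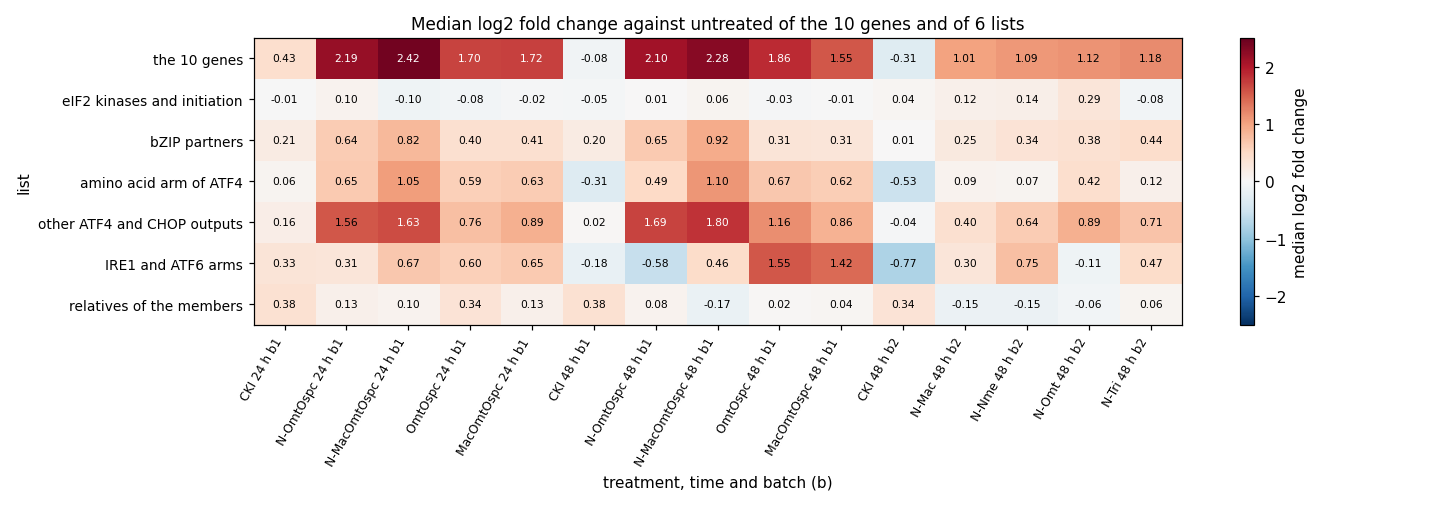
Median log2 fold change against untreated cells of the same block for the 10 genes (top row) and for 6 lists of related genes (other rows) in each of the 15 treated groups, printed in each cell with red for higher. The row of the IRE1 and ATF6 arms reaches 1.55 with OmtOspc and -0.58 with N-OmtOspc at 48 h, where the top row has 1.86 and 2.10.

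Across the 18 groups, after the mean of each block was taken out of the log2 CPM, the 10 genes fell into patterns that were more or less alike. These correlations describe group means that share libraries and blocks, and they carry no p. TRIB3 followed SESN2 and CHAC1 most closely, with Pearson r of 0.98 in both cases, and DDIT4 and VLDLR were nearly unrelated with r of 0.013. The search for other genes left out the 10 genes themselves, some of which were closer to each other than to genes named next, such as ATF4 and CHAC1 with r of 0.97. ADM2, which encodes a peptide hormone, was among the closest genes to TRIB3 (0.99), CHAC1 (0.99), SESN2 (0.97) and ATF4 (0.95) among the other genes of at least 10 CPM. Of these PHGDH was closest to ATF4 (0.96), CEBPG (0.97) and HERPUD1 (0.95) to DDIT3, and GARS to SESN2 (0.97) and, after ADM2, to TRIB3 (0.96). CEBPB was most like LURAP1L and CTH (0.97 each), VLDLR most like ZSWIM4 and ZSWIM8 (0.96 each), PPP1R15A most like ATG12 (0.95) and MIS12 (0.94) outside the 10 genes, with DDIT3 and ATF3 at 0.95 each, ATF3 most like WDR66 and HKDC1 (0.95 each), and PXDC1 came next after ADM2 for CHAC1 (0.96). DDIT4 had as its nearest genes NOG and ST3GAL6, at 0.72 and 0.71.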

How the data were processed

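RNA-seq libraries of MDA-MB-231 cells were strand-specific and made with oligo(dT). Per the submitters' processing notes, the tools were FastQC 0.11.4, Trim Galore 0.3.7, STAR 2.5.3a, featureCounts of Subread 1.5.2 and edgeR 3.22.3, with genome build hg19. The authors deposited whole-number counts of reads per gene, without normalization, for 27978 genes. The 10 genes and the gene lists were chosen with earlier results of these data known. Genes named from a list are the 2 highest and 2 lowest by mean log2 fold change over the 3 CKI comparisons, of which some are described, and for likeness the 2 genes with the highest Pearson r.

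In R 4.3.3, edgeR 4.0.16 (TMM, filterByExpr, glmQLFit and glmQLFTest) was fitted in each block of 18 libraries, and in the 6 untreated libraries for comparisons of untreated cells. P-values were adjusted by Benjamini-Hochberg over all genes tested and called at 0.05. SE and 95% intervals come from the same fit. Log2 CPM for likeness used a prior count of 2. The method was tried on simulated counts with the same spread in every block. That spread was below the one estimated at 24 h (coefficient of variation 0.175) and above those at 48 h (0.076 in batch 1 and 0.048 in batch 2). No simulated library was made to stand apart, so the trial does not cover the calls at 24 h. Alternatives were DESeq2 1.42.0, other scalings, no filter, only the groups compared, a replicate block, and leaving out each library. Promoters are from RefSeq on GRCh38.p14, which is not the build of the counts.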

Additional observations from a re-analysis of the deposited data

Results flagged for a closer look

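SESN2, the gene of the leucine sensor sestrin 2, differed in the sign of its ratio of CKI to untreated cells between the times in batch 1. Its log2 fold change against untreated cells was 0.44 at 24 h and -0.19 at 48 h, the latter not called. All 3 CKI libraries lay above all 3 untreated libraries at 24 h and below all 3 at 48 h. Both sides of the ratio moved: mean CPM went from 17.5 at 24 h to 22.3 at 48 h in untreated cells and from 23.7 to 19.5 with CKI. The difference between the times was not tested. At 24 h the value was 0.27 and no longer called without CKI replicate 1, a library that stood apart from its group, and it was 0.27 and called without all 3 libraries that did so.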

How the results depend on the processing

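Of 3270 values of the 10 genes recomputed under alternatives, 3121 kept their direction and their side of the threshold, 54 lost a call, 95 gained one and 0 changed direction past the threshold. Of the 10 genes, the number called for MacOmtOspc minus OmtOspc at 48 h was 1, and became 3 with library sizes alone, 4 with DESeq2, 4 without the filter and 6 with only those groups in the fit, with 0 to 1 over the leave-outs. Over all genes that comparison gave 307 calls, 287 with library sizes alone, 494 with DESeq2, 418 without the filter and 1402 with only those groups. For N-Mac against the other removals the number went from 5 to 8 without the filter and 9 with only the removals in the fit, and for N-Nme from 3 to 7 under both, with 3 to 5 over the leave-outs. Over all genes the calls were 5788, 5702 and 5763 for N-Mac and 6677, 6521 and 6627 for N-Nme, in that order of settings. For N-Tri the number of the 10 genes went from 4 to 2 with DESeq2 (5778 and 5558 over all genes). For N-OmtOspc minus N-MacOmtOspc at 24 h it was 4, and 7 without the 3 libraries that stood apart (7238 and 7994 over all genes). For CKI at 24 h it was 5, with 3 to 5 over the leave-outs and 7 without those 3 libraries, and for OmtOspc at 24 h it was 8 and became 10 without them. Over all genes leaving them out took the calls from 4562 to 5039 for CKI and from 2543 to 3445 for OmtOspc. For MacOmtOspc against untreated cells at 24 h, all genes gave 1588 calls and 5097 with only those groups. Fits with only the groups compared hold fewer libraries, and the cause of these changes was not tested.

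Same-numbered libraries deviated together (correlation over 0.1) in 17, 15 and 9 of 45 pairs in the 3 blocks, with medians of -0.07, -0.03 and 0.03. The medians for libraries with different numbers were 0.05, -0.02 and -0.02. These correlations do not settle whether the numbers pair the samples. With the replicate block, 6 of the 10 genes were called for CKI at 24 h (CEBPB added, 0.73) and 8 for CKI at 48 h in batch 1 (SESN2 added, -0.19). The block also added ATF3 (0.25) for N-OmtOspc minus N-MacOmtOspc at 48 h, DDIT4 (0.10) for N-Mac and ATF3 (-0.17) for N-Nme against the other removals, and changed no other call of the 10 genes. Over all genes it took CKI at 24 h from 4562 to 4497 calls and CKI at 48 h in batch 1 from 8377 to 8272. The untreated difference between times went from 3571 to 1966 calls.

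With library sizes alone the share of higher calls went from 50.1% to 60.1% for CKI at 48 h in batch 1, from 50.4% to 61.5% for OmtOspc and 50.2% to 60.5% for MacOmtOspc at 48 h, and from 50.2% to 34.4% for N-OmtOspc at 24 h. For N-OmtOspc minus N-MacOmtOspc it went from 50.1% to 25.5% at 24 h and from 49.2% to 65.5% at 48 h, where the median of all genes moved to -0.33 and 0.13. The medians also moved to -0.31 for N-OmtOspc at 24 h and to 0.13 for OmtOspc at 48 h. PPP1R15A was then not called in that Mac contrast at 48 h (-0.10). No library held fewer than 100 counts of any of the 10 genes, and each group rests on 3 libraries.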

Other observations

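Of 10 relatives of the genes described, 4 were called higher and 0 lower with CKI at 24 h, 6 and 1 at 48 h in batch 1, and 8 and 1 in batch 2. In the same order 15.3%, 27% and 32.3% of all genes were called higher and 14.8%, 27% and 34.2% lower. SESN3, a sestrin gene that FOXO factors raise, was higher in all 3 blocks, with log2 fold changes of 1.99 ± 0.34, 1.28 ± 0.13 and 1.78 ± 0.10, whereas SESN2 was lower in batch 2. With N-MacOmtOspc at 48 h SESN3 was lower (-0.55 ± 0.15) and SESN2 higher (2.54 ± 0.08). TRIB1 was likewise higher with CKI (1.24 ± 0.16, 0.93 ± 0.12 and 0.95 ± 0.07), and it was also higher with N-OmtOspc at 48 h (3.06 ± 0.12).

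TRIB2 differed in sign among the mixtures. Against untreated cells at 48 h it had -1.56 ± 0.07 with OmtOspc and -1.34 ± 0.07 with MacOmtOspc, but 1.16 ± 0.07 with N-OmtOspc and 0.21 ± 0.07 with N-MacOmtOspc. At 24 h the values were -0.64 ± 0.18, -0.86 ± 0.18, 1.69 ± 0.18 and 0.96 ± 0.18 in the same order. CKI, which also holds Omt and Ospc, had 0.02 ± 0.18, 0.00 ± 0.07 and 0.21 ± 0.06 in the 3 blocks, the last called higher. In batch 2 it was lower with N-Mac (-0.93 ± 0.06), N-Nme (-1.11 ± 0.06) and N-Tri (-0.81 ± 0.06) and higher with N-Omt (0.47 ± 0.06), a difference from the other removals of 1.42 ± 0.04 (edgeR, adjusted p = 2.36e-22). GGCT, an enzyme gene of glutathione turnover, had log2 fold changes with CKI of -0.20 ± 0.14, -0.22 ± 0.09 and -0.39 ± 0.06 in the 3 blocks.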
